A study of Mus musculus with 6 samples.

Results

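The genes described here are 8 mouse genes for sensors of foreign or misplaced nucleic acid and their adaptors, together with Dhx58os, an RNA transcribed antisense to one of them. These 9 genes are among 55401 genes measured in 6 mouse cancer cell lines. The 8 coding genes (Ddx58, Ifih1, Dhx58, Mavs, Tmem173, Tlr3, Zbp1 and Aim2) were listed by function. Dhx58os was chosen by its measured level, which was higher in the lines labelled Rag1KO, so its difference between the groups is given as a description without a test. All 9 were matched by gene symbol, and 8 of them passed the filter on low read numbers. Aim2 did not pass, having 1455 and 166 reads in 2 libraries and 1 to 6 in the others, so it has values but no test.

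RNA was sequenced from lines of primary cancer cells derived from tumours of C57BL/6 mice. In 3 lines the host was labelled WT (replicates 2, 4 and 6), and in the other 3 lines it was labelled Rag1KO (replicates 1, 3 and 7). Rag1 is needed to assemble antigen receptors, so mice without it lack mature T and B cells while keeping innate immune cells, and the series' title names immunoediting as its theme. The cultures were kept in DMEM with serum, and the labels name no immune stimulus or infection. The labels give neither the tumour type nor the animals' age and sex, and do not say which lines shared an animal, if any; p-values therefore measure only the spread between these 6 samples.

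Cells detect viruses, and their own misplaced nucleic acid, through a small set of sensors. In the cytosol RIG-I (gene Ddx58) and MDA5 (gene Ifih1) bind double-stranded RNA. Both pass the signal through tandem caspase recruitment domains to MAVS on the mitochondrial surface. LGP2 (gene Dhx58) is a relative without those domains that modulates the other two. TLR3 reads double-stranded RNA inside endosomes and signals through TRIF (gene Ticam1). STING (gene Tmem173) receives the cyclic dinucleotide made by cGAS when DNA is present in the cytosol. MAVS, TRIF and STING converge on the kinase TBK1 and on the transcription factors IRF3 and IRF7, which switch on interferon genes. ZBP1 binds left-handed nucleic acid and can start necroptosis through RIPK3 and MLKL, and AIM2 binds DNA and assembles an inflammasome through ASC (gene Pycard) and caspase-1. Several of the sensor genes are themselves induced by interferon.

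The libraries held 55409583 to 62998051 reads assigned to genes, and levels below are normalized counts, meaning reads divided by 1 size factor per library. Where 3 values are given for a group they are in the order of WT replicates 2, 4, 6 or Rag1KO replicates 1, 3, 7. Rag1 had 0 reads in the 3 libraries labelled WT, which allows up to 3 reads in each. It had 41, 109 and 183 reads in the libraries labelled Rag1KO. Reads of Rag1 were thus found only in lines labelled Rag1KO. The position of those reads within Rag1 was not examined, and the genotype behind each label was not tested. Groups are named by their labels throughout. WT replicate 6 stood apart from the other libraries: it lay at least 4-fold below every other library for 7.41% of the 16137 genes tested and at least 4-fold above for 1.55%. It was also the only line labelled WT with reads of the Y-linked genes Kdm5d and Uty, which all 3 lines labelled Rag1KO expressed. Eif2s3y, also Y-linked, had 0 reads in all 3 lines labelled WT, WT replicate 6 included. It had 1484 to 2541 reads in the lines labelled Rag1KO, so this gene separated the groups with all libraries. WT replicates 2 and 4 had 59775 and 32733 normalized counts of Xist and the other lines at most 15.3, so with WT replicate 6 left out the group and this sex-linked difference cannot be told apart. The labels give no marker by which a primary cancer cell line could be checked. Collagen genes were abundant in most lines. For the mesenchymal genes Col1a1 and Thy1, WT replicate 6 had 206 and 0.88 normalized counts and each other line at least 478322 and 29802. The 10 fibroblast and mesenchymal markers listed still summed to 495383 normalized counts in WT replicate 6 and 1441873 to 2281368 elsewhere. Of the 8 epithelial markers listed, Epcam alone had 0 reads in all 6 lines. Together the 8 summed to 10.6 normalized counts in WT replicate 6 and 1762 to 6337 in the other lines.

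The sensor genes varied widely between lines of the same group, and the adaptor genes Mavs and Tmem173 varied little. Ranked by their median level per kilobase of exon, a scale that allows genes to be compared, Tmem173 came highest at 1070 normalized counts per kilobase (range over the 6 lines 786 to 1176). Mavs followed at 747 (678 to 997) and Ddx58 at 462 (229 to 1618). Dhx58 had a median of 239 normalized counts per kilobase (36.5 to 1234), Ifih1 of 204 (47.5 to 678) and Tlr3 of 78.3 (45.2 to 589). At the low end stood Dhx58os at 55.0 (1.66 to 105), Zbp1 at 29.6 (5.43 to 471) and Aim2 at 1.55 (0.331 to 366). The ranges of every pair of neighbours in this order overlapped. Within lines, Tmem173 nevertheless exceeded Mavs, Ddx58 exceeded Dhx58, and Ifih1 exceeded Tlr3 in 6 of 6 lines, whereas Mavs exceeded Ddx58 and Dhx58 exceeded Ifih1 in 4 of 6. The adaptors Mavs and Tmem173 therefore formed a steady pair with the highest medians. The sensors varied and lay below both adaptors, with exceptions for Ddx58 and Dhx58. Ddx58 lay above both in WT replicate 6 and Rag1KO replicate 7 (1618 and 1315 normalized counts per kilobase), and Dhx58 in WT replicate 6 (1234).

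**Figure D1:**
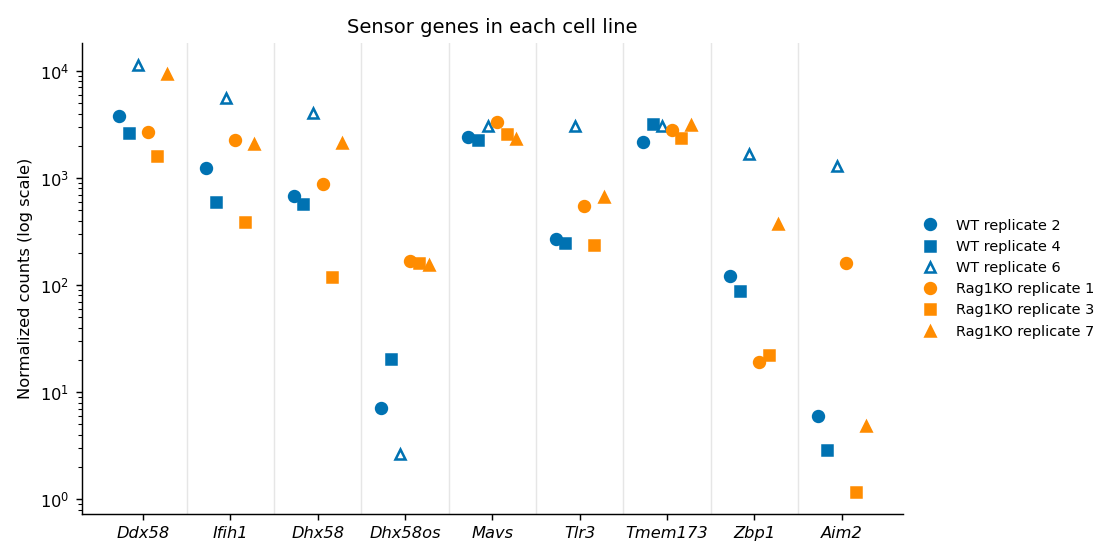
Normalized counts (log scale) of the 9 genes in each of the 6 cell lines, 1 point per line, blue for lines labelled WT and orange for lines labelled Rag1KO, with WT replicate 6 as an open triangle. Mavs and Tmem173 stay within a narrow band, Tlr3, Zbp1 and Aim2 are highest in WT replicate 6, and the groups are separate only for Dhx58os.

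Ddx58, which encodes RIG-I (ENSMUSG00000040296.15, chromosome 4, 40203773 to 40239828, minus strand, mm10), had 3825, 2613 and 11405 normalized counts in the WT lines. It had 2683, 1618 and 9268 normalized counts in the Rag1KO lines. Each group thus held 1 line with a high level, WT replicate 6 and Rag1KO replicate 7, and the other 4 lines lay within 1618 to 3825, so the groups overlapped. On the log2(value + 1) scale WT minus Rag1KO gave a log2 fold change of 0.50 (SE 0.82), and of −0.12 without WT replicate 6. The adjusted p was 0.901 by limma over all genes tested.

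Ifih1, which encodes MDA5 (ENSMUSG00000026896.14, chromosome 2, 62595798 to 62646255, minus strand), had 1248, 597 and 5533 normalized counts in the WT lines. The Rag1KO lines had 2282, 388 and 2091 normalized counts. WT replicate 6 was highest at 2.42-fold above the next line, but Rag1KO replicate 1, an ordinary line for Ddx58, came next, and Rag1KO replicate 3 was lowest. Its log2 fold change was 0.38 (SE 1.04, adjusted p = 0.945 by limma) with all libraries and −0.51 without WT replicate 6, and edgeR and DESeq2 both gave 0.62 with all libraries.

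Dhx58, which encodes LGP2 (ENSMUSG00000017830.15, chromosome 11, 100694884 to 100704271, minus strand), had the widest spread of the RIG-I-like receptors. It had 678, 572 and 4038 normalized counts in the WT lines, against 885, 119 and 2115 in the Rag1KO lines. The highest line was 33.8-fold above the lowest, compared with 7.05-fold for Ddx58 and 14.3-fold for Ifih1. Rag1KO replicate 3 lay at least 4-fold below every other line for Dhx58, as it did for 0.465% of all genes tested. Dhx58 had a log2 fold change of 0.93 (SE 1.26, adjusted p = 0.883 by limma), and 0.03 without WT replicate 6.

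The upstream sequences of 3 sensor genes that varied between lines and of the steady adaptor gene Mavs are shown so that the letters searched for interferon-linked motifs can be read. They are the 250 bases before RefSeq's annotated start, which for Tlr3 lies inside the gene's span in GENCODE, on GRCm38.p6, the assembly that mm10 stands for, written 5′ to 3′ on the gene's strand. The RefSeq promoter table used here matched 5 of the 9 genes (Ddx58, Ifih1, Mavs, Tlr3 and Aim2). Capitals mark matches to AANNGAAA, a core letter pattern of sites for interferon regulatory factors, on either strand.
Ddx58, chr4:40239826-40240075, minus strand: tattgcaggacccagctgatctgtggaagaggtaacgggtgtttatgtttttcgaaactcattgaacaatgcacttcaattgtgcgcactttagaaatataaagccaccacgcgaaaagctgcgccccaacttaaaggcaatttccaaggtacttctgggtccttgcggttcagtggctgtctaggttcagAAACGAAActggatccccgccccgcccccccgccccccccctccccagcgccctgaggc
Ifih1, chr2:62646256-62646505, minus strand: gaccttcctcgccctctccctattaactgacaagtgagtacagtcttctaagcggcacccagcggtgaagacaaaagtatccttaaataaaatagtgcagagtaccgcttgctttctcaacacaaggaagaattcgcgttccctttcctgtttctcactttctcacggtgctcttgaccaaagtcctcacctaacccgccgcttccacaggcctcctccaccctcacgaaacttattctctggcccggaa
Tlr3, chr8:45410381-45410630, minus strand: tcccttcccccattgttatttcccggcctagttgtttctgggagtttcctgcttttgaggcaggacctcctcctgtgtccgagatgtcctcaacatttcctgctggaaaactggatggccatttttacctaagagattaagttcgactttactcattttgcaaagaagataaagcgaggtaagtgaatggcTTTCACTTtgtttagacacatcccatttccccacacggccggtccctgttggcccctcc
Mavs, chr2:131233813-131234062, plus strand: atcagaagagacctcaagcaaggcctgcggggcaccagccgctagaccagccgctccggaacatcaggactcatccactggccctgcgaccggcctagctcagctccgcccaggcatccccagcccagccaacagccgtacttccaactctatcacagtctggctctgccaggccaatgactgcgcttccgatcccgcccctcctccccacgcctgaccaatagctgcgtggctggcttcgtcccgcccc

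Within these 250 bases Ddx58 and Tlr3 each held 1 match to AANNGAAA, on the gene's strand in Ddx58 and on the opposite strand in Tlr3, and both began 59 bases before the start. The search also covered the 50 bases after the start, where Ifih1 and Ddx58 each held a match to the longer core of an interferon-stimulated response element, GAAA repeated after any 2 bases, which contains AANNGAAA. Short windows around those matches follow, with the match in capitals. The match began 33 bases after the start in Ifih1, on the gene's strand, and at the third base in Ddx58, on the opposite strand.
Ifih1, chr2:62646208-62646229, minus strand: agaatcGAAACAGAAAccgatc
Ddx58, chr4:40239808-40239829, minus strand: aggcagTTTCGATTTCctatgg

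Over all 32851 RefSeq promoter windows of 300 bases, both strands searched, 23.9% held AANNGAAA and 3.44% held the longer core. Mavs and Aim2 held neither pattern in this window. TTCNNNGAA, a letter pattern of sites for STAT transcription factors, was also searched. It was found in 8.30% of all windows and in none of the 5 genes matched. A match is a description of the letters and not evidence of binding, and the absence of a match speaks only of these windows.

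Dhx58os lies beside and partly across Dhx58 on the opposite strand (ENSMUSG00000085604.1, chromosome 11, 100687417 to 100697520, plus strand). It had 7.05, 20.3 and 2.64 normalized counts in the WT lines, from 7, 21 and 3 reads. The Rag1KO lines had 168, 162 and 155 normalized counts, from 175, 140 and 160 reads. The 3 lines labelled Rag1KO lay close together, at 162 ± 6.37 normalized counts (SD, n = 3), and well above the 9.99 ± 9.18 (SD, n = 3) of the lines labelled WT. As log2 fold change this was −4.25, and −3.63 without WT replicate 6. This is the difference that selected the gene, so no test is given. Groups that do not overlap with Rag1KO higher were found for 5.6% of all genes tested, and in either direction for 12.1%.

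The level of Dhx58os did not follow that of Dhx58. Across the 3 lines labelled Rag1KO Dhx58 spanned 119 to 2115 normalized counts while Dhx58os spanned 155 to 168. Dhx58os reads amounted to 136% of Dhx58 reads in Rag1KO replicate 3, 18.9% in Rag1KO replicate 1 and 7.33% in Rag1KO replicate 7, against 1.04%, 3.55% and 0.0654% in the WT lines. An exon of Dhx58os shares 141 bases (100697026 to 100697166) with Dhx58 exons, which is 8.85% of the exonic bases of Dhx58os and 4.31% of those of Dhx58. The libraries were made with a stranded kit, but no source used here states that strand was used in counting, so reads from the shared stretch cannot be told apart. WT replicate 6 had 3 reads assigned to Dhx58os beside 4589 assigned to Dhx58. Of the neighbouring genes, Zfp385c, whose span reaches across the start of Dhx58os, had at most 5.7 normalized counts in any line. Kat2a, on the other side of Dhx58, had 3536, 3207 and 6966 normalized counts in the WT lines and 3598, 2562 and 3702 in the Rag1KO lines.

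**Figure D2:**
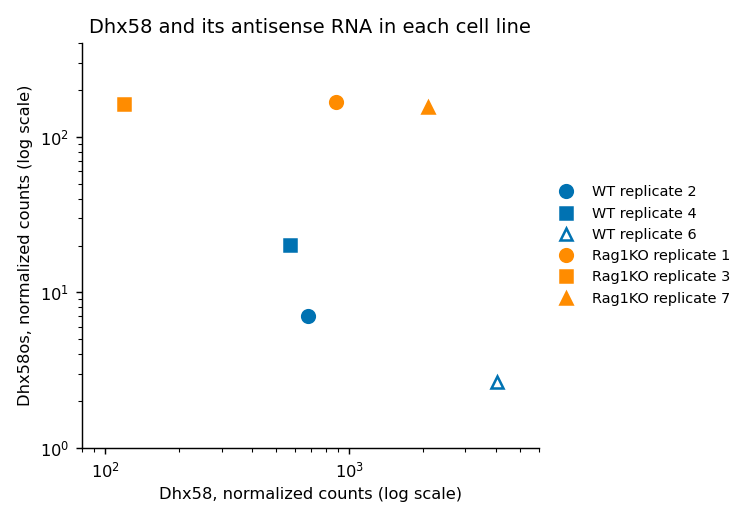
Normalized counts of Dhx58 (horizontal, log scale) and Dhx58os (vertical, log scale), 1 point per cell line, blue for lines labelled WT and orange for lines labelled Rag1KO. The 3 lines labelled Rag1KO sit at 155 to 168 on the Dhx58os axis while spanning 119 to 2115 on the Dhx58 axis, and the 3 lines labelled WT lie at or below 20.3 on the Dhx58os axis.

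The adaptor Mavs, on which RIG-I and MDA5 converge (ENSMUSG00000037523.13, chromosome 2, 131234063 to 131248025, plus strand), was steady. It had 2398, 2268 and 3031 normalized counts in the WT lines and 3334, 2601 and 2296 in the Rag1KO lines. The highest line was 1.47-fold above the lowest, where the median gene tested had a 2.46-fold range on the log2(value + 1) scale. Mavs had a log2 fold change of −0.09 with a 95% interval of −0.63 to 0.44 (adjusted p = 0.937 by limma).

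Tmem173, which encodes STING (ENSMUSG00000024349.10, chromosome 18, 35733679 to 35740554, minus strand), was steady too. It had 2155, 3224 and 3032 normalized counts in the WT lines and 2833, 2373 and 3117 in the Rag1KO lines. The lowest line was WT replicate 2 and the highest WT replicate 4, a 1.5-fold range, and the groups overlapped. Tmem173 had a log2 fold change of 0.0027 with a 95% interval of −0.55 to 0.55 (adjusted p = 0.998 by limma). Neither adaptor passed the threshold, and differences within its interval were not excluded.

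Tlr3, the endosomal sensor of double-stranded RNA (ENSMUSG00000031639.12, chromosome 8, 45395665 to 45411080, minus strand), stood out in 1 line. It had 272, 246 and 3066 normalized counts in the WT lines and 543, 235 and 665 in the Rag1KO lines. WT replicate 6 was 4.61-fold above the next line, and the other 5 lines lay within a 2.83-fold range. Its log2 fold change was 0.42 (SE 1.06, adjusted p = 0.940 by limma) with all libraries and −0.76 without WT replicate 6, when WT replicates 2 and 4 both lay below Rag1KO replicates 1 and 7. On recovered reads edgeR and DESeq2 both gave Tlr3 a log2 fold change of 1.30 with all libraries. Of the Tlr3 exonic bases 7.32% are shared with Gm45542, a gene on the opposite strand.

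Zbp1, the sensor of left-handed nucleic acid (ENSMUSG00000027514.14, chromosome 2, 173206612 to 173218923, minus strand), had the widest spread of the tested sensors. It had 121, 87.9 and 1662 normalized counts in the WT lines and 19.2, 22.0 and 373 in the Rag1KO lines. WT replicate 6 was 4.46-fold above Rag1KO replicate 7, which in turn exceeded all other lines. Rag1KO replicate 1 was near the bottom with 20 reads, although it ranked next to WT replicate 6 for Ifih1. Its log2 fold change of 2.23 (SE 1.60, adjusted p = 0.850 by limma) went to 0.90 without WT replicate 6.

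Aim2, the DNA-binding inflammasome sensor (ENSMUSG00000037860.15, chromosome 1, 173350879 to 173466040, plus strand), was detected at depth in 2 lines only. WT replicate 6 had 1280 normalized counts from 1455 reads, and Rag1KO replicate 1 had 159 from 166 reads. The remaining lines had 6, 3, 1 and 5 reads (WT replicates 2 and 4, Rag1KO replicates 3 and 7), or 1.16 to 6.04 normalized counts. Each group therefore had 1 line with Aim2 and 2 lines almost without it. The difference of log2 means was 1.37, and −1.27 without WT replicate 6, so its sign rested on that library.

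Sensors such as Aim2, Zbp1 and Tlr3 are abundant in macrophages, so leukocyte markers are given beside them. The summed level of the 12 macrophage and leukocyte markers was 360 to 912 normalized counts in lines labelled WT and 460 to 2111 in lines labelled Rag1KO. The lowest sum, 360, was that of WT replicate 6, the line with the highest Aim2, Zbp1 and Tlr3. The highest sum, 2111, was that of Rag1KO replicate 1, the other line with Aim2 (166 reads). Ptprc, which encodes the pan-leukocyte protein CD45, reached at most 3.83 normalized counts, and Tyrobp and Cd52 had 0 reads in all 6 libraries. Lyz2 was at 1493 normalized counts in Rag1KO replicate 1 and had 0 reads in WT replicate 6. The 10 lymphocyte markers summed to 3.02 to 6.95 normalized counts per line, with Cd3e, Cd3g, Cd2, Cd8a and Ms4a1 at 0 reads throughout. The 6 dendritic cell markers summed to 192 to 457 normalized counts in lines labelled WT and 106 to 339 in lines labelled Rag1KO, nearly all of it Zbtb46. Of other tissues, the 8 epithelial markers summed to 10.6 normalized counts in WT replicate 6 and 1762 to 6337 elsewhere, the 6 endothelial markers to 27.3 and 208 to 1483, and the 6 melanocyte markers to 463 to 2253 over all lines. The 10 fibroblast and mesenchymal markers summed to 495383 in WT replicate 6 and 1441873 to 2281368 elsewhere, and the part of any such cells in the sensor levels was not tested. In bulk RNA a change in the number of expressing cells and a change in RNA per cell cannot be told apart.

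Between the groups, 0 of the 7 tested sensor and adaptor genes passed the adjusted threshold of 0.05 in limma, where 0.0062% of all genes tested did (1 of 16137, the Y-linked Eif2s3y). Their adjusted p lay between 0.850 and 0.998. At an unadjusted p under 0.05 limma gave 0 of the 7, against 4.67% of all genes. edgeR's quasi-likelihood test also called 0 of the 7 at its adjusted threshold (0% of all genes) and 0 unadjusted (4.44%). DESeq2 gave a p for 5 of the 7 and called 0 of those adjusted (0.41% of all genes) and 0 unadjusted (6.65%). It gave no p for Tlr3 and Zbp1, whose DESeq2 log2 fold changes were 1.30 and 2.17. The log2 fold change was positive for 6 of the 7 with all libraries, against 50% of all genes, and for 2 of the 7, Dhx58 and Zbp1, without WT replicate 6. The groups overlapped for all 7 tested genes. The intervals were wide for the sensors, reaching for example from −1.50 to 2.50 for Ddx58 and from −1.69 to 6.16 for Zbp1.

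**Figure D3:**
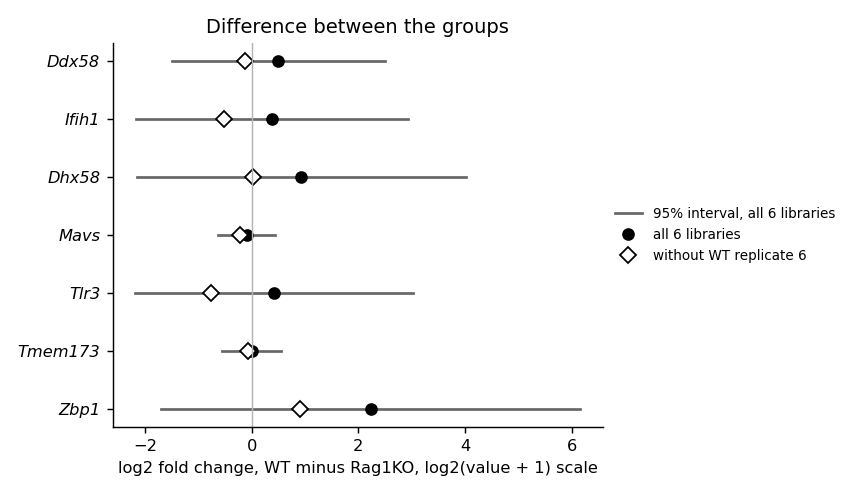
Log2 fold change (WT minus Rag1KO, log2(value + 1) scale) of the 7 tested genes, with filled points and 95% intervals from limma on all 6 libraries and open diamonds for the fit without WT replicate 6. Every interval spans 0, those of Mavs and Tmem173 are narrow, and without WT replicate 6 only the points of Dhx58 and Zbp1 lie above 0.

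The pattern over lines can be described without reference to the groups, for the 7 tested genes and leaving out Dhx58os, whose range is the difference that selected it. WT replicate 6 was the highest line for 5 of the 7 (Ddx58, Ifih1, Dhx58, Tlr3 and Zbp1), and for Aim2, where it was highest for 27.4% of all genes tested. Rag1KO replicate 3 was the lowest line for 4 of the 7 (Ddx58, Ifih1, Dhx58 and Tlr3), and for Aim2, against 16.3% of all genes. The highest line was at least 4-fold above the lowest for 5 of the 7, against 31.2% of all genes. Among the 5 lines other than WT replicate 6, such a range was seen for 4 of the 7 (Ddx58, Ifih1, Dhx58 and Zbp1), against 22.1% of all genes. The RIG-I-like receptor genes thus varied among the other lines as well, while for Tlr3 the other lines lay within the 2.83-fold range given above.

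The sensors did not all rank the lines alike. Over the 6 lines, Pearson's r on the log2(value + 1) scale was 0.93 between Ddx58 and Dhx58, 0.92 between Ifih1 and Dhx58 and 0.84 between Ddx58 and Ifih1. It was 0.93 between Ddx58 and Zbp1 but 0.68 between Ifih1 and Zbp1, and 0.87 between Ifih1 and Aim2 but 0.47 between Zbp1 and Aim2. Mavs had an r of 0.03 with Ddx58, and Dhx58os an r of −0.44 with Dhx58. Each r describes 6 points that share a scaling, and WT replicate 6 is an extreme point in most of these pairs. Rag1KO replicate 7 was high for Ddx58, Dhx58 and Zbp1 yet had 5 reads of Aim2, and Rag1KO replicate 1 showed Ifih1 and Aim2 but little Zbp1.

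The partners of these sensors were taken from 10 lists compiled by function, with 134 genes listed, 133 found and 102 tested. In limma 0 of the 102 passed the adjusted threshold (0.0062% of all genes) and 1 had an unadjusted p under 0.05 (4.67% of all genes). edgeR called 0 of the 102 (0% of all genes), with 1 at an unadjusted p under 0.05 (4.44% of all genes). DESeq2 gave a p for 101 of them, all but Oas2, and called 0 (0.41% of all genes). In DESeq2 2 (Ifi207 and Oas3) had an unadjusted p under 0.05 (6.65% of all genes). WT minus Rag1KO was positive for 59 of the 102 (50% of all genes). The median log2 difference was 0.08 against 0.0003 over all genes tested. The groups did not overlap for 10 of the 102 (12.1% of all genes), 8 with WT higher (6.49% of all genes) and 2 with Rag1KO higher (5.6% of all genes). WT replicate 6 was the highest line for 41 of the 102 (27.4% of all genes).

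**Figure D4:**
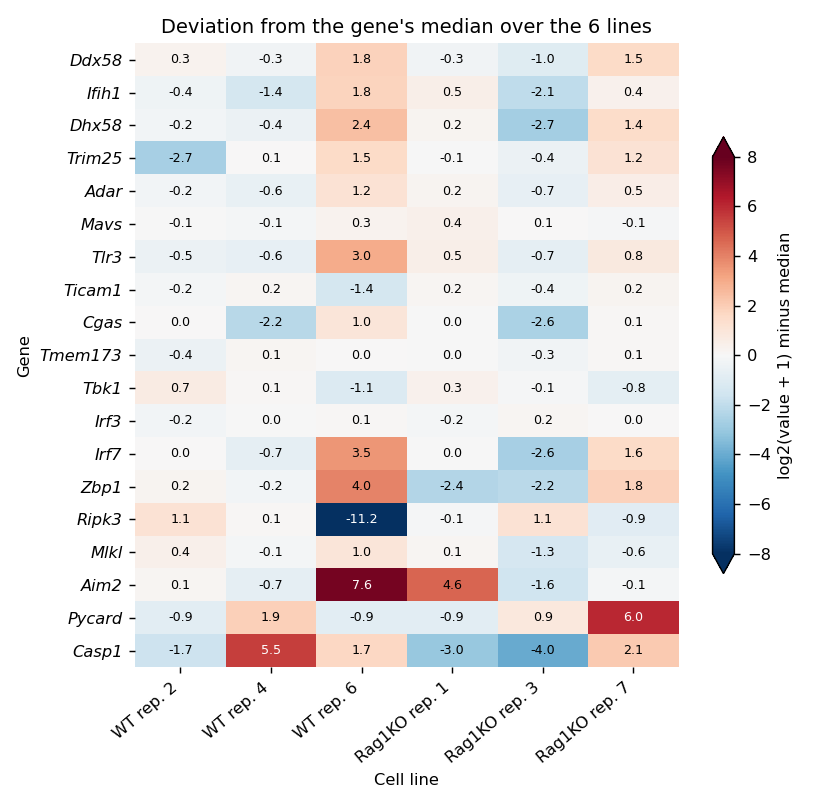
Deviation of each gene's log2(value + 1) from its median over the 6 cell lines (columns), for the sensors, their adaptors and the partners they signal through (rows), with red above and blue below the median and colours saturating at 8 either way. Ddx58, Ifih1, Dhx58 and Irf7 are highest in WT replicate 6 and lowest in Rag1KO replicate 3, Mavs, Tmem173 and Irf3 barely move, and Ripk3 is at −11.24 in WT replicate 6.

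For the RIG-I-like receptors and MAVS, 0 of 17 tested partners were called, with 9 positive and a median log2 fold change of 0.15. For this list and those that follow, the shares over all genes tested were 0.0062% called by limma and 50% positive. With 1 of 16137 genes called, a count of 0 does not set a list apart. Trim25, the ubiquitin ligase that activates RIG-I, had 397 normalized counts in WT replicate 2 and 1841 to 7288 in the other 5 lines, so WT replicate 2 combined ordinary Ddx58 with little Trim25. The helicase gene Ddx3x had 27587 ± 5216 normalized counts in lines labelled WT against 19921 ± 1410 in lines labelled Rag1KO (SD, n = 3), without overlap (log2 fold change 0.46, adjusted p = 0.850 by limma). Ddx3x lies on the X chromosome. It was highest in WT replicates 2 and 4 (33268 and 26480 normalized counts), the lines with abundant Xist, and WT replicate 6 had 23014. The part of the sex-linked difference in that of Ddx3x was not tested. Traf6, a ubiquitin ligase recruited by MAVS, had 1777 ± 215 normalized counts against 1385 ± 94.5 (log2 fold change 0.36, adjusted p = 0.850 by limma). Among the 11 brakes on RNA sensing 0 were called, with 6 positive and a median of 0.04. Adar, which edits double-stranded RNA and so hides it from MDA5, had 2601 to 9275 normalized counts, highest in WT replicate 6 and lowest in Rag1KO replicate 3, as Ifih1 was. Rnf125, a ubiquitin ligase that marks RIG-I for degradation, was at 48.3, 95.6 and 21.1 normalized counts in the WT lines and 116, 81.1 and 112 in the Rag1KO lines. Rnf125 had a log2 fold change of −1.12 (adjusted p = 0.850 by limma), and that of Tnfaip3, which encodes the deubiquitinase A20, −1.08 (adjusted p = 0.850 by limma). Without WT replicate 6 these were −0.58 and −0.55.

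On the DNA side the receptor for the second messenger was steady and the enzyme that makes it was not. Cgas had 548, 118 and 1086 normalized counts in the WT lines and 543, 91.5 and 588 in the Rag1KO lines. WT replicate 4 and Rag1KO replicate 3 were low, 1 line in each group, and both kept Tmem173 at 3224 and 2373 normalized counts. Cgas had a log2 fold change of 0.42 (adjusted p = 0.942 by limma), and of −0.28 without WT replicate 6. In the list of 12 tested cytosolic DNA sensing genes 0 were called and 11 were positive (50% of all genes), with a median of 0.25. Without WT replicate 6, 6 were positive with a median of 0.04. Ifi207, of the interferon-inducible p200 family to which Aim2 belongs, had 1326, 787 and 10099 normalized counts in the WT lines and 366, 446 and 247 in the Rag1KO lines. It was the partner with an unadjusted p under 0.05 in limma (0.0318, log2 fold change 2.67, SE 0.96, adjusted p = 0.850). DESeq2 gave Ifi207 a log2 fold change of 3.52 with an adjusted p of 0.0553, and edgeR the same fold change with an adjusted p of 0.891. Without WT replicate 6 its log2 fold change was 1.57. Members of this family are near-identical in parts, so their reads may be split between copies. Xrcc5, which encodes the Ku80 DNA end-binding protein, had 2141 ± 1058 against 1230 ± 284 normalized counts (SD, n = 3; log2 fold change 0.72, adjusted p = 0.850 by limma, and 0.34 without WT replicate 6).

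Of the 8 tested genes for nucleic acid clearance and cyclic dinucleotide turnover 0 were called, with 5 positive and a median of 0.04. The lysosomal DNase gene Dnase2a had 1124 ± 245 normalized counts against 744 ± 126 (SD, n = 3), without overlap (log2 fold change 0.59, adjusted p = 0.850 by limma). Samhd1, a dNTP hydrolase, had a log2 fold change of −0.45 (adjusted p = 0.858 by limma), and of −0.10 without WT replicate 6. Trex1, a cytosolic DNA exonuclease gene, is listed at 0 in every library. All of its 1147 exonic bases lie within exons of Atrip on the same strand, so its reads could not be told apart from those of Atrip.

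The other RNA sensors and RNA-binding effectors moved with the RIG-I-like receptors across lines. Of 15 tested genes 0 were called, 11 were positive and the median log2 fold change was 1.18, or 0.55 without WT replicate 6. WT replicate 6 was highest for 11 of the 15 (27.4% of all genes) and Rag1KO replicate 3 lowest for 14 (16.3%). The highest line was at least 4-fold above the lowest for 14 (31.2% of all genes). Oas2, which makes oligoadenylates on binding double-stranded RNA, had 141, 91.7 and 5961 normalized counts in the WT lines and 448, 3.48 and 136 in the Rag1KO lines. The kinase gene Eif2ak2, encoding PKR, spanned only 2583 to 7008 normalized counts. Ifit2 and Ifit3, genes for RNA-binding antiviral proteins, had log2 fold changes of 0.88 and 1.90 (adjusted p = 0.850 by limma for each), and 0.70 and 0.89 without WT replicate 6. Rag1KO replicate 3 lay at least 4-fold below every other line for 11 of the 102 partners, against the 0.465% of all genes given above. These 11 were Ddx60, Ifi203, Oas1a, Oas1g, Oas2, Oas3, Oasl1, Oasl2, Ifit1, Ifit3 and Ifit3b, some of which are close copies of each other.

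Tlr3 was the only nucleic acid sensing Toll-like receptor of those listed with appreciable reads in every line. Tlr8, Tlr9 and Tlr13 stayed at or below 2.91 normalized counts, and Tlr7 at or below 8.62 except for 98.5 in WT replicate 4. Ticam1, the adaptor of TLR3, had 707 normalized counts in WT replicate 6, its lowest line, and 1492 to 2216 in the others, so the line with the highest Tlr3 had the least Ticam1. Ticam1 had a log2 fold change of −0.49 (adjusted p = 0.850 by limma), and −0.01 without WT replicate 6. Unc93b1, which escorts these receptors to endosomes, had 2488, 1120 and 11.4 normalized counts in the WT lines and 702, 3335 and 2441 in the Rag1KO lines. Its log2 fold change was −2.46 (adjusted p = 0.850 by limma), −0.85 in edgeR and DESeq2, and −0.10 without WT replicate 6. Cnpy3, a chaperone gene for the receptors, had a log2 fold change of 0.32 (adjusted p = 0.850 by limma). Of the 6 tested genes in this list 0 were called, with 4 positive and a median of 0.06.

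Downstream, 0 of 15 kinases and transcription factors were called, with 5 positive and a median log2 fold change of −0.12. Irf3, the constitutive factor activated by TBK1, was as steady as the adaptors, at 1517 to 2001 normalized counts. Irf7, its interferon-inducible relative, had 1044, 612 and 11758 normalized counts in the WT lines and 991, 162 and 2991 in the Rag1KO lines. It thus ranked WT replicate 6 first, Rag1KO replicate 7 next and Rag1KO replicate 3 last, the same top and bottom lines as Dhx58. Irf7 had a log2 fold change of 1.32 (SE 1.48, adjusted p = 0.862 by limma), and 0.03 without WT replicate 6. Tbk1 had 1519 normalized counts in WT replicate 6 and 1899 to 5079 elsewhere, lowest in the line with the highest sensors. Azi2 and Tbkbp1, adaptor genes of TBK1, had log2 fold changes of 0.48 and −2.51 (adjusted p = 0.850 by limma for each), and 0.17 and −0.59 without WT replicate 6. For Tbkbp1 edgeR and DESeq2 gave −1.40.

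Interferon transcripts themselves were nearly absent. Ifnb1 had 1, 0 and 2 reads in the WT lines and 3, 0 and 4 reads in the Rag1KO lines. Of the 20 type I and III interferon genes listed 14 had 0 reads in all 6 libraries, and 1, Ifnz, was tested, at 14.1 to 43.3 normalized counts (log2 fold change −0.10, adjusted p = 0.981 by limma, and 0.25 without WT replicate 6). Of the 10 tested interferon receptor and signalling genes 0 were called, with 4 positive and a median of −0.03. The receptor gene Ifnar1 spanned 2919 to 4690 normalized counts. Il10rb, a shared receptor chain for type III interferon, had 619 ± 78.9 normalized counts against 852 ± 109 (SD, n = 3), without overlap (log2 fold change −0.46, adjusted p = 0.850 by limma). Ifnar2 had a log2 fold change of −0.30 (adjusted p = 0.857 by limma).

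Ripk3, the kinase that ZBP1 engages, had 10007, 4824 and 0.88 normalized counts in the WT lines, the last from 1 read, and 4258, 9945 and 2456 in the Rag1KO lines. WT replicate 6, with the most Zbp1, was therefore almost without Ripk3. Mlkl, the executioner of necroptosis, had 3550, 2410 and 5153 normalized counts in the WT lines and 2917, 1045 and 1791 in the Rag1KO lines (log2 fold change 1.0, adjusted p = 0.850 by limma). Pycard, the adaptor of AIM2, had 117 normalized counts in Rag1KO replicate 7, at most 5.79 in the other lines, and 0 reads in WT replicate 6 and Rag1KO replicate 1, the 2 lines with Aim2. Casp1 was at 753 normalized counts in WT replicate 4, 51.0 in WT replicate 6 and 0.96 in Rag1KO replicate 1. Il1b, an inflammasome substrate, had 0 reads throughout, and Il18 had 203 ± 49.9 normalized counts against 323 ± 62.8 (SD, n = 3), without overlap (log2 fold change −0.68, adjusted p = 0.850 by limma). Of the 7 tested genes in this list 0 were called, with 4 positive and a median of 0.01. Ripk3 had a log2 fold change of −3.39 (adjusted p = 0.853 by limma), −0.18 in edgeR and DESeq2, and 0.56 without WT replicate 6.

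The genes whose levels most resembled each sensor over the 6 lines were found by Pearson's r on log2(value + 1), among 6425 genes that varied at least 2-fold and averaged 1 or more in log2 CPM. With 6 points that share libraries and scaling, many genes reach a high r, so these are descriptions. For Ddx58 they were Mrpl49 (r = 0.995), Bckdk (r = 0.994) and Psat1 (r = 0.985). For Ifih1 they were Fen1 (r = 0.997), Trip13 (r = 0.996) and Oas1a (r = 0.994), and for Dhx58 Rtp4 (r = 0.995), Oasl2 (r = 0.994) and Sf3b3 (r = 0.993). Dhx58os was closest to Tbc1d23 (r = 0.985), Slc26a6 (r = 0.984) and Slc4a3 (r = 0.979). Because Dhx58os was chosen for its difference between the groups, its closest genes share that split as a result of the choice. Tlr3 was closest to Ints6l (r = 0.997), Arrdc3 (r = 0.990) and Lgals3bp (r = 0.985), and Zbp1 to Pabpc4 (r = 0.996), Eps15 (r = 0.995) and Gm10110 (r = 0.995). Over their narrow ranges, Mavs was closest to Ccdc71l (r = 0.96), Ttll3 (r = 0.95) and Arhgap27 (r = 0.95), and Tmem173 to Dand5 (r = 0.98), 2810013P06Rik (r = 0.97) and Zfp760 (r = 0.96).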

How the data were processed

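RNA-seq was compared in 6 mouse cell lines, 3 labelled WT and 3 labelled Rag1KO. The authors deposited 1 signal value per gene and library. The submitters' processing notes list, without roles, the aligner STAR 2.7.9a, the trimmer Trim Galore 0.6.6, FastQC, DESeq2 and build mm10; the counter, its strand setting and the annotation are not given in the sources used here. Every value was a whole number of reads, within 0.01 reads, divided by 1 size factor per library, and those reads were recovered. Of 55401 gene IDs, 55141 were found in GENCODE M21, which gave coordinates and exon lengths. A count of 0 was taken to allow 3 reads, for counting error only.

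edgeR's filterByExpr kept 16137 genes. The comparison of WT with Rag1KO used limma 3.58.1 with its intensity trend on log2(value + 1), with two-sided p-values adjusted over all genes by Benjamini-Hochberg and a threshold of 0.05. It was tested on simulated data. Alternatives were edgeR 4.0.16 (TMM) and DESeq2 1.42.0 on recovered reads, TMM and library-size scaling, a pseudocount of 0.1, other filters, and each library left out. Named genes are all 9 genes, the 2 of lowest p in each partner list, 13 partners fixed by name (1 of which is not reported here), and the 3 closest in pattern; others were named after their values were seen. The members and lists were chosen with earlier results of these data known.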

Additional observations from a re-analysis of the deposited data

How the results depend on the processing

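The number of genes called by limma, 1 with all libraries, was 0 with edgeR, 65 with DESeq2 and 0 to 5 with 1 library left out (5 without WT replicate 6). The number of called partner genes was 0 under all 13 alternatives. Of 57 values of the 9 genes under the 7 alternatives that keep all libraries, 56 kept their direction. Those of Dhx58os, chosen for its direction, are included. The other filters leave each gene's log2 fold change as it was, so the agreement under them was fixed in advance. The exception was Tmem173 at −0.0095 on the log2 scale with TMM scaling. With 1 library left out the log2 fold change ranged from −0.12 to 1.22 for Ddx58, −0.51 to 1.10 for Ifih1, −0.24 to 1.83 for Dhx58, −0.22 to 0.059 for Mavs, −0.11 to 0.18 for Tmem173 and −0.76 to 1.05 for Tlr3, each turning sign. It turned without WT replicate 6 or Rag1KO replicate 3 for Ddx58 (−0.12 and −0.04), Ifih1 (−0.51 and −0.45), Tlr3 (−0.76 and −0.03) and Tmem173 (−0.06 and −0.11). It also turned without Rag1KO replicate 3 for Dhx58 (−0.24), without WT replicate 4 for Tmem173 (−0.11) and without Rag1KO replicate 1 for Mavs (0.059). Zbp1 kept its sign (0.90 to 3.60), and Dhx58os, whose direction its selection fixed, ranged from −4.91 to −3.63. Leaving out a library also leaves 2 samples in its group, and the cause of each turn beyond that was not tested. No paired analysis was possible because the groups share no replicate numbers. Aim2 was not tested, and its 1 to 6 reads in 4 lines limit what can be said of it.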
